A study of Sus scrofa with 12 samples.

Results

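These data describe gene expression in the jejunum of piglets whose mothers ate an unsupplemented diet, compared between the day of weaning and 1 week later, for the genes that the study did not place on its list of differentially expressed genes. The members are gene names of the deposited expression table that are absent from that list, which holds 456 names, 451 of them found in the table. Of 17049 gene names in the table, 16598 lay outside the list, and 12165 of these had a mean of at least 0.5 FPKM (fragments scaled to exon length and to sequencing depth) over the 6 control libraries and were tested. The fit itself ran on all 12611 gene names above that limit, 446 of them on the list. Because the listed genes were called by the study on the same libraries, the members are what remained after those calls were removed, and their share of calls is not read as a finding.

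RNA was sequenced from the jejunum of 12 male piglets, 3 in each of 4 groups. The sucking control piglets (W_Con) were 21 days old on the day of weaning, and the weaned control piglets (PW_Con) were 28 days old, 7 days after weaning. Their sows received a basal corn and soybean meal diet. The other 6 piglets (W_Res at 21 days and PW_Res at 28 days) came from sows given the same diet with resveratrol at 300 mg/kg, and shared no library with the control piglets. The study's account of the animals gives 6 Yorkshire by Duroc litters, each of which gave 1 male piglet at each age. Only 3 control piglets per age were sequenced, so that sucking and weaned libraries may come from shared litters. The labels do not say which libraries, if any, share one. In contrast, the deposited record mentions Landrace semen and cross-fostering, so the breed is given here as the sources state it. No piglet of 28 days was left with its sow, so that a week of age and weaning cannot be told apart. In bulk tissue, fewer cells of a type and less RNA per cell cannot be told apart either.

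The jejunal epithelium of a sucking piglet is supplied with milk fat, and its enterocytes bind long-chain fatty acids, burn part of them in mitochondria, and export the rest on chylomicrons. After weaning the diet turns to starch and plant protein, and the gut wall meets new microbes and food antigens while B cells of the Peyer's patches and lamina propria mature. Enterocyte genes, antibody genes and genes induced by interferon are therefore the groups usually watched in this tissue at this age.

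Summed FPKM per library ran from 313171 to 334469 over the 12 libraries, and depth per gene is unknown because the table holds no counts. Replicates correlated at 0.918 to 0.952 among sucking and 0.932 to 0.945 among weaned control piglets (Pearson's r across genes on log2(FPKM + 1)). Markers of the place along the gut differed within the sucking group. The summed level of 17 matched genes of distal small intestine and colon was 9180, 2370 and 179 FPKM in sucking control replicates 1, 2 and 3 and 10600, 9670 and 7240 FPKM in the weaned ones. The 11 matched genes of proximal small intestine summed to 271, 553 and 2960 FPKM in the sucking and 124, 146 and 78.7 FPKM in the weaned libraries. These sums count every matched gene, so they include genes on the study's own list, 4 of the 11 proximal and 3 of the 17 distal ones. A few abundant genes can carry such a sum, and the share of each gene is not given here. By these sums sucking control replicate 3 stood apart, with the highest proximal and the lowest distal sum. It also had the lowest sums for smooth muscle (227 FPKM against 592 to 892 FPKM in the other 5) and connective tissue matrix (364 FPKM against 391 to 1250 FPKM). The part of these differences in any result was not tested, and values without that library are given for many of the results.

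A member was called when it passed the study's own standard, an unadjusted P under 0.05 and a change of more than 2-fold, here with limma on log2(FPKM + 1). "Rose" and "fell" are used only for such members, every adjusted p is limma's Benjamini-Hochberg value over all names tested, and every log2 fold change is weaned minus sucking on that scale, which understates changes of weakly expressed genes. Under this standard 251 members were called, 112 higher and 139 lower in weaned piglets, which is 2.06% of the members against 3.31% of all gene names tested (1.5% higher and 1.82% lower). At an unadjusted P under 0.05 alone, 1906 members differed, 1005 higher and 901 lower, and 1655 of them changed by less than 2-fold; the background is 17.7%. The control libraries did not overlap for 2870 members, or 23.6%, against 25.3% of all names tested. After adjustment in limma over all 12611 names, no member had an adjusted p under 0.05, and a linear model of the Ballgown type gave 1 such name over all names tested. Leaving out 1 control library gave 0 to 5 such names over all names then tested. In the main fit the lowest adjusted p was 0.117, shared by 90 members, and the 56 genes chosen by the naming rule had adjusted p-values from 0.117 to 0.279. Of the named genes that kept their calls whichever library was omitted, MT2A, CXCL13, IGLC, TFF3, HSPB1, ASNS, PER1, ENPP3, ACSL3, DAO and GIP lost them in the Ballgown-type model, and OASL and MROH2A with all 12 libraries in the fit. Most named genes that lost a call on omission of a library lost it in that model too. At the edge of the 2-fold limit, NCCRP1 (log2 fold change 1.00, adjusted p = 0.208) was just past the limit and ID1 (1.00, adjusted p = 0.215) just short of it among the higher genes, as were FMO5 (-1.0, adjusted p = 0.184) and SLC2A2 (-1.0, adjusted p = 0.168) among the lower ones. NCCRP1 lost its call without sucking replicate 1 or 3 or weaned replicate 2 or 3 (0.79 to 0.98), and in the Ballgown-type model. SLC2A2 gained a call without sucking replicate 1 or 2 or weaned replicate 1 or 2, and at a pseudocount of 0.1. ID1 gained one without sucking or weaned replicate 2, at that pseudocount and under median-of-ratios rescaling.

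Among members named by symbol in the table, FGFBP1 and MT2A rose most of those without overlap. FGFBP1, a secreted carrier that frees fibroblast growth factors from the matrix, was at 3.92, 1.87 and 2.03 FPKM in the sucking and at 126, 32.9 and 20.0 FPKM in the weaned control piglets. Its lowest weaned library lay well above its highest sucking one, for a log2 fold change of 3.68 ± 0.62 (SE, adjusted p = 0.117). MT2A, a metallothionein that binds zinc and copper, was at 10.3, 8.78 and 4.73 FPKM before and at 185, 285 and 20.5 FPKM after weaning (3.61 ± 0.90, adjusted p = 0.141). Weaned replicate 3 was the lowest of its group for both genes. PHGDH, which catalyses the first step of serine synthesis from glucose, was below 1 FPKM in every sucking library, at 0.889, 0.901 and 0.699 FPKM. In the weaned libraries it stood at 17.8, 27.4 and 3.80 FPKM (2.91 ± 0.60, adjusted p = 0.117). The next enzymes of the same route, picked after values were seen, differed less. PSAT1 was at 1.27, 1.20 and 0.738 FPKM and then at 3.76, 5.26 and 0.767 FPKM (0.87 ± 0.45, adjusted p = 0.366), and PSPH differed by 0.56 ± 0.30 (adjusted p = 0.377). FGFBP1, MT2A and PHGDH kept their calls without any 1 of the 6 libraries, and their log2 fold changes then ran from 2.93 to 4.23, 2.88 to 4.75 and 2.38 to 3.66. MT2A was not called in the Ballgown-type model.

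A pair of members without a symbol resembled MT2A. In the authors' assembly, the loci of ENSSSCG00000023684 and ENSSSCG00000024911 are numbered close to that of MT2A, and the table annotates both with metal ion binding. ENSSSCG00000023684 was at 2.98, 1.22 and 0.502 FPKM in the sucking and 141, 304 and 4.39 FPKM in the weaned control piglets. ENSSSCG00000024911 was at 0.205, 0.288 and 0.0812 FPKM and then at 15.5, 34.0 and 1.1 FPKM. The 3 loci ordered the weaned libraries alike, with replicate 2 highest and replicate 3 lowest, and near-identical copies could share reads, so that their values are not independent. Another name without a symbol, ENSSSCG00000004585, had a smaller unadjusted P than any other gene named here, with 6.32, 6.02 and 5.85 FPKM against 81.8, 29.4 and 54.9 FPKM (2.88 ± 0.34, adjusted p = 0.117). Of the 251 called members 106 carried only an Ensembl name, and 30 of these had a symbol in the reference table. TTC21B, the ciliary transport gene matched to ENSSSCG00000015908, had the highest fitted rise of all members, but its sucking libraries read 223, 0.467 and 0.302 FPKM against 225, 279 and 259 FPKM after weaning, so that 2 of 12 libraries stood apart from the rest.

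**Figure D1:**
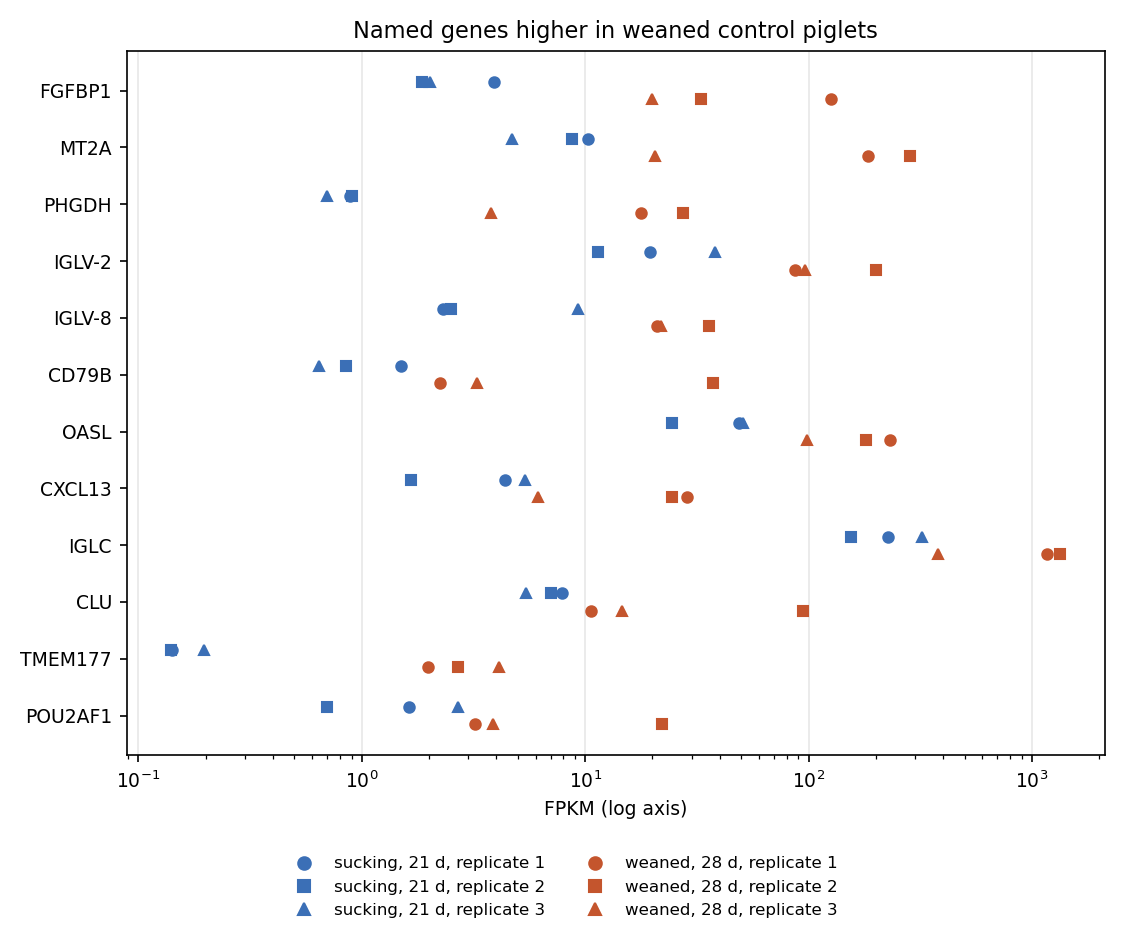
FPKM in each control library (log axis) of the 12 members with a symbol that rose most without overlap between groups; blue marks are sucking and orange marks weaned piglets, and the marker shape gives the replicate. FGFBP1 separates the groups at 3.92 against 20.0 FPKM, while CD79B, CLU and POU2AF1 are far higher in weaned replicate 2 than in any other library.

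The lambda chain genes IGLV-2, IGLV-8 and IGLC and the B cell genes CD79B and POU2AF1 were among the 12 named rises. The calls of CD79B and POU2AF1 were lost without weaned replicate 2. No list of antibody genes was fixed, so no share of them is given. The immunoglobulin lambda variable segment IGLV-2 was at 19.5, 11.4 and 38.2 FPKM in the sucking and at 87.0, 200 and 96.1 FPKM in the weaned control piglets (2.48 ± 0.47, adjusted p = 0.117). IGLV-8 went from 2.31, 2.50 and 9.27 FPKM to 20.9, 35.8 and 21.8 FPKM (2.42 ± 0.46, adjusted p = 0.117). The lambda constant region IGLC went from 226, 155 and 322 FPKM to 1170, 1340 and 379 FPKM (1.9 ± 0.51, adjusted p = 0.153), with weaned replicate 3 only just above the highest sucking library. Reads of these repeated segments could be split among copies, so that single segments are uncertain. The kappa segment IGKV-7 did not pass and was at 100, 9.85 and 126 FPKM and then at 140, 101 and 176 FPKM (1.40 ± 0.87, adjusted p = 0.449). All 3 named lambda genes kept their calls without any 1 library, and IGLC lost its call in the Ballgown-type model.

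Of 13 tested members on the list of B cell and plasma cell markers, 3 rose and none fell, against backgrounds of 1.5% higher and 1.82% lower, with a median log2 fold change of 0.84 against -0.02 over all names tested. CD79B, which signals beside the B cell receptor, was at 1.5, 0.851 and 0.644 FPKM in the sucking and at 2.25, 37.5 and 3.29 FPKM in the weaned control piglets (2.05 ± 0.86, adjusted p = 0.279). POU2AF1, a coactivator of antibody genes, was at 1.62, 0.698 and 2.70 FPKM and then at 3.23, 22.2 and 3.87 FPKM (1.62 ± 0.65, adjusted p = 0.262). Both groups separated, yet weaned replicate 2 alone stood far from the rest. The same library held 18.7 FPKM of CR2, the complement receptor of follicular B cells and dendritic cells, which was at most 0.231 FPKM in the other 5, and 12.6 FPKM of CD22 against at most 5.10 FPKM elsewhere. Its summed B cell markers came to 394 FPKM, compared with 185 to 270 FPKM in the other 5 control libraries. Without weaned replicate 2, CD79B was at 0.93 and POU2AF1 at 0.83, neither past the standard, and the median of the list was 0.36. CD79B also lost its call without any 1 sucking library, and POU2AF1 without sucking replicate 1 or 2. DERL3, an endoplasmic reticulum protein abundant in plasma cells, did not follow that library: it was at 6.17, 5.41 and 7.93 FPKM and then at 13.3, 13.1 and 16.2 FPKM (1.03 ± 0.19, adjusted p = 0.117), and without sucking replicate 2 or weaned replicate 3 it was inside the 2-fold limit (lowest value 0.92). The abundant CD79A was at 150, 146 and 144 FPKM and then at 160, 200 and 201 FPKM, without overlap (0.34 ± 0.16, adjusted p = 0.32).

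CXCL13, CCL19 and CXCL17 were chemokine genes that rose. CXCL17, which the list of cytokines and chemokines does not count here and which was named after its values were seen, was at 4.40, 3.78 and 3.37 FPKM and then at 21.0, 6.91 and 13.1 FPKM, without overlap (1.48 ± 0.36, adjusted p = 0.135). CXCL13, which draws B cells into follicles, rose from 4.40, 1.67 and 5.38 FPKM to 28.5, 24.6 and 6.14 FPKM (1.96 ± 0.58, adjusted p = 0.172), with weaned replicates 1 and 2 high and replicate 3 close to the sucking range. CCL19, a ligand of CCR7 that guides T cells and dendritic cells, was at 17.3, 7.96 and 5.22 FPKM and then at 10.8, 105 and 44.7 FPKM (1.94 ± 0.78, adjusted p = 0.261), and its groups overlapped. CLU, a secreted chaperone, was at 7.89, 7.05 and 5.44 FPKM and then at 10.6, 94.1 and 14.7 FPKM (1.74 ± 0.72, adjusted p = 0.274). Without weaned replicate 2, CLU was at 0.81 and CCL19 at 1.21. These 2 genes also lost the call without sucking replicate 2 or 3, CLU without sucking replicate 1 and CCL19 without weaned replicate 3. Only CCL19 and CXCL13 of the 31 tested members on the cytokine and chemokine list rose (background 1.5%), and no member of it fell; IFNG was at 4.27, 2.48 and 2.65 FPKM and then at 1.03, 1.34 and 1.26 FPKM (-0.88 ± 0.22, adjusted p = 0.142), inside the 2-fold limit.

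T cell genes did not move together. Of 28 tested members on the list of T cell and cytotoxic lymphocyte markers none passed the standard, 2 were higher and 3 lower at P under 0.05 (background 9.35% higher and 8.38% lower), and the median was -0.01. Over the 6 omissions of 1 library 1 to 5 were higher and 0 to 5 lower. CD3E, a chain of the T cell receptor complex, was at 82.5, 49.1 and 54.8 FPKM and then at 31.7, 50.1 and 28.9 FPKM (-0.74 ± 0.28, adjusted p = 0.238). CD3D (-0.63 ± 0.25, adjusted p = 0.262) and the granzyme gene GZMA (-0.67 ± 0.28, adjusted p = 0.278) were lower as well, whereas CD5 (0.56 ± 0.19, adjusted p = 0.202) and NKG7 (0.61 ± 0.26, adjusted p = 0.281) were higher. The groups overlapped for CD3E, CD3D, GZMA and NKG7.

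**Figure D2:**
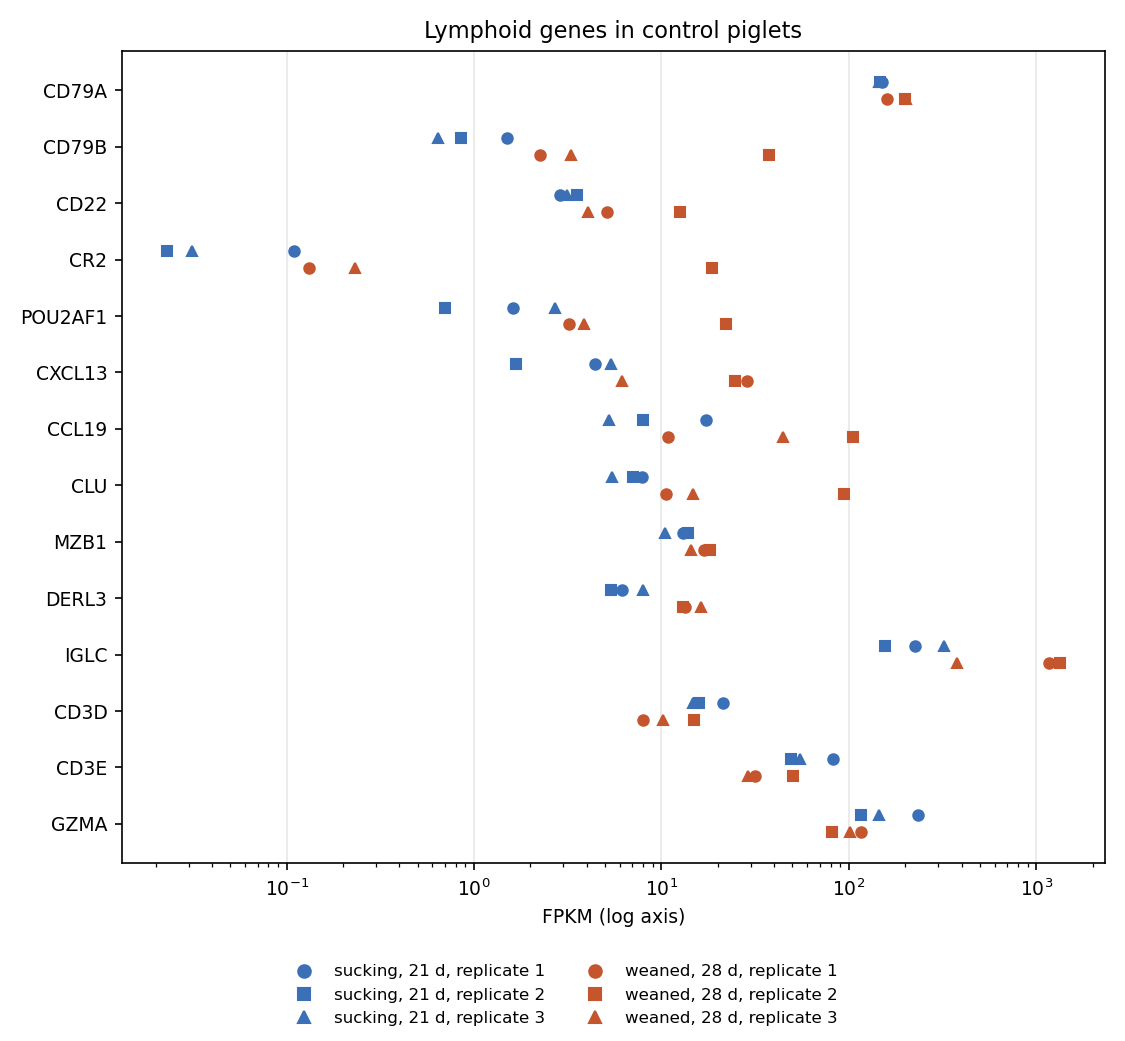
FPKM in each control library (log axis) of B cell, follicle, antibody and T cell genes; blue marks are sucking and orange marks weaned piglets, and the marker shape gives the replicate. Weaned replicate 2 (orange square) stands alone at 37.5 FPKM for CD79B and 18.7 FPKM for CR2, while DERL3 separates the groups in all 3 weaned libraries.

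Some genes induced by interferon rose after weaning. Of 36 tested members on that list, 4 rose and none fell, 7 were higher and 2 lower at P under 0.05 (background 9.35% higher and 8.38% lower), and the median was 0.66. OASL, an antiviral protein of the oligoadenylate synthetase family, was at 48.9, 24.6 and 50.7 FPKM in the sucking and at 232, 181 and 98.2 FPKM in the weaned control piglets (2.00 ± 0.39, adjusted p = 0.117), without overlap. DHX58, a sensor of viral RNA, was at 8.54, 8.16 and 11.4 FPKM and then at 36.9, 24.5 and 15.3 FPKM (1.29 ± 0.31, adjusted p = 0.135). OAS2, one of the synthetases that make the activator of RNase L, was at 13.1, 29.2 and 49.6 FPKM and then at 75.9, 139 and 47.8 FPKM (1.54 ± 0.53, adjusted p = 0.214). OAS1 was at 88.2, 246 and 290 FPKM and then at 738, 540 and 260 FPKM (1.34 ± 0.54, adjusted p = 0.259). Both OAS1 and OAS2 overlapped, because weaned replicate 3 was low and sucking replicate 3 high. Leaving out weaned replicate 3 gave 2.35 for OASL, 1.9 for OAS2 and 1.77 for OAS1. OAS1 was not called when sucking replicate 1 (0.81) or weaned replicate 1 (1.02) or 2 (1.24) was omitted, and OAS2 was not called without sucking replicate 1 (1.05) or weaned replicate 2 (1.14). OAS1 also lost its call without the filter on low values, under median-of-ratios rescaling and with the replicate block. Both lost their calls in the Ballgown-type model, and OAS1 lost it with all 12 libraries in the fit. DHX58 without weaned replicate 1 was at 0.99, just under the 2-fold limit, and was not called in the Ballgown-type model. OASL was not called with all 12 libraries in the fit. Without sucking replicate 3, the library with the highest proximal sum, 15 members of the list were higher at P under 0.05 and none lower. Without weaned replicate 2 the numbers were 3 and 0, and other scalings of the libraries gave 2 to 6 higher. The median dropped to 0.26 when weaned replicate 1 was omitted, and over the 6 omissions it reached at most 0.88. Outside the list, and named after their values were seen, HSH2D (1.55, adjusted p = 0.17) and the interferon alpha-inducible ISG12(A) (1.52, adjusted p = 0.161) rose, whereas GBP4 (-1.05, adjusted p = 0.161), UBD (-1.29, adjusted p = 0.223) and CD274 (-1.24, adjusted p = 0.224) fell.

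Further members that rose belong to several groups. TMEM177, a mitochondrial membrane protein, was at 0.141, 0.140 and 0.197 FPKM in the sucking and 1.98, 2.71 and 4.12 FPKM in the weaned control piglets, a tight separation at a low level (1.73 ± 0.24, adjusted p = 0.117). CYP1A1, a detoxifying cytochrome P450 induced through the aryl hydrocarbon receptor, was at 0.343, 0.809 and 0.0457 FPKM and then at 17.3, 36.3 and 0.795 FPKM (2.97 ± 1.01, adjusted p = 0.208). Weaned replicate 3 was thus within the sucking range for CYP1A1, and omitting sucking replicate 3 (2.78), weaned replicate 1 (2.58) or weaned replicate 2 (2.07) ended the call. The same list of 20 xenobiotic genes held 2 that fell (background 1.82%), and 2 of its members were higher and 3 lower at P under 0.05. ABCG2, an efflux pump of the apical membrane, went from 33.1, 39.5 and 40.5 FPKM to 17.0, 21.1 and 5.73 FPKM (-1.47 ± 0.42, adjusted p = 0.17). EPHX2, the soluble epoxide hydrolase, was at 19.9, 16.9 and 6.53 FPKM and then at 4.54, 7.47 and 4.54 FPKM, with overlap (-1.15 ± 0.40, adjusted p = 0.215), and it kept its call only without sucking replicate 3 (-1.60) or weaned replicate 2 (-1.35). ABCG2 was at -0.95 without weaned replicate 3.

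On the list of 30 heat shock and protein folding genes, 2 rose and none fell (background 1.5% and 1.82%), with a median of 0.05. HSPB1, a small heat shock protein, was at 1.93, 1.84 and 4.04 FPKM and then at 16.2, 7.22 and 6.17 FPKM (1.53 ± 0.39, adjusted p = 0.142). ASNS, which makes asparagine and is a known target of the amino acid response, was at 5.15, 6.43 and 5.86 FPKM and then at 26.3, 8.30 and 20.7 FPKM (1.38 ± 0.38, adjusted p = 0.161). Both kept their calls without any 1 library and lost them in the Ballgown-type model. On the list of 21 immediate early genes, 5 were higher and 1 lower at P under 0.05 (background 9.35% higher and 8.38% lower), with a median of 0.38, and FOS alone passed the standard. FOS, a subunit of the AP-1 transcription factor, was at 7.96, 16.8 and 14.4 FPKM and then at 28.0, 27.1 and 24.6 FPKM (1.03 ± 0.27, adjusted p = 0.148), and was at 0.73 without sucking replicate 1 and at 0.99 without weaned replicate 1. KLF4 (0.58 ± 0.15, adjusted p = 0.153), MYC (0.58 ± 0.16, adjusted p = 0.161) and DUSP1 (0.71 ± 0.18, adjusted p = 0.143) were higher in all 3 weaned libraries than in any sucking one, inside the 2-fold limit. PER1, a repressor of the circadian clock that glucocorticoids also induce, went from 8.53, 5.02 and 7.31 FPKM to 11, 36.4 and 21.5 FPKM (1.47 ± 0.41, adjusted p = 0.161), and was the only 1 of 13 clock members to pass the standard.

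TFF3, the trefoil peptide that goblet cells secrete with mucus, rose from 313, 610 and 350 FPKM to 995, 683 and 1360 FPKM (1.26 ± 0.34, adjusted p = 0.159) and was the only 1 of 9 tested goblet cell members past the standard. The summed goblet cell list, at 1150 to 1510 FPKM in sucking and 1140 to 2300 FPKM in weaned libraries, overlapped. On the cholesterol list 4 of 22 members were higher and none lower at P under 0.05 (background 9.35% and 8.38%), among them the synthesis enzymes LSS (0.76 ± 0.18, adjusted p = 0.134), DHCR7 (0.75 ± 0.20, adjusted p = 0.15) and MVK (0.42 ± 0.17, adjusted p = 0.27). MYL9, a myosin light chain of smooth muscle, was at 41.6, 22.4 and 11.8 FPKM and then at 37.2, 75 and 56.8 FPKM, with overlap (1.24 ± 0.45, adjusted p = 0.228). No other 1 of the 14 smooth muscle members passed, and MYL9 lost its call without sucking replicate 2 or 3 or weaned replicate 2 or 3; without sucking replicate 3, which had the lowest smooth muscle sum, it was at 0.81.

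KRT8, TALDO1 and RCN3, all abundant, separated the groups but changed by less than 2-fold. KRT8, a keratin of simple epithelia, was at 855, 853 and 823 FPKM in the sucking and at 1580, 1380 and 1650 FPKM in the weaned control piglets (0.86 ± 0.17, adjusted p = 0.117). TALDO1, an enzyme of the pentose phosphate pathway, was at 70.2, 86.4 and 80.4 FPKM and then at 137, 150 and 127 FPKM (0.80 ± 0.16, adjusted p = 0.117). RCN3, a calcium-binding protein of the secretory pathway, was at 139, 128 and 131 FPKM and then at 211, 222 and 214 FPKM (0.70 ± 0.14, adjusted p = 0.117). Their spread within a group was small beside the difference, and none depended on 1 library.

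Some genes of fat handling fell after weaning. On the list of fat absorption and chylomicron assembly, 3 of 18 tested members fell and none rose (background 1.82% lower), 4 were lower at P under 0.05 (background 8.38%), and the median was -0.43. FABP2, the intestinal fatty acid-binding protein, was at 260, 759 and 419 FPKM in the sucking and at 131, 106 and 60.3 FPKM in the weaned control piglets (-2.20 ± 0.43, adjusted p = 0.117). MTTP, the transfer protein that loads fat onto apolipoprotein B, was at 198, 285 and 371 FPKM and then at 135, 78.0 and 40.5 FPKM (-1.86 ± 0.44, adjusted p = 0.132). ACSL3, which activates long-chain fatty acids, went from 56.3, 133 and 116 FPKM to 52.3, 30.4 and 11.6 FPKM (-1.81 ± 0.55, adjusted p = 0.178), with sucking replicate 1 and weaned replicate 1 nearly touching. The groups of all 3 genes stayed apart, and weaned replicate 3 was the lowest each time. They kept their calls without any 1 library, and without sucking replicate 3 the log2 fold changes were -2.23, -1.64 and -1.67. ACSL3 was not called in the Ballgown-type model. The sums of proximal markers given above separated the groups. The distal sums overlapped, with sucking replicate 1 at 9180 FPKM inside the weaned range of 7240 to 10600 FPKM. The part of place along the gut in these falls was not tested beyond leaving out sucking replicate 3. The median of the list was -0.13 without weaned replicate 3, -0.32 without sucking replicate 3 and -0.70 without sucking replicate 1, and the number lower at P under 0.05 ran from 3 to 7 over the 6 omissions.

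**Figure D3:**
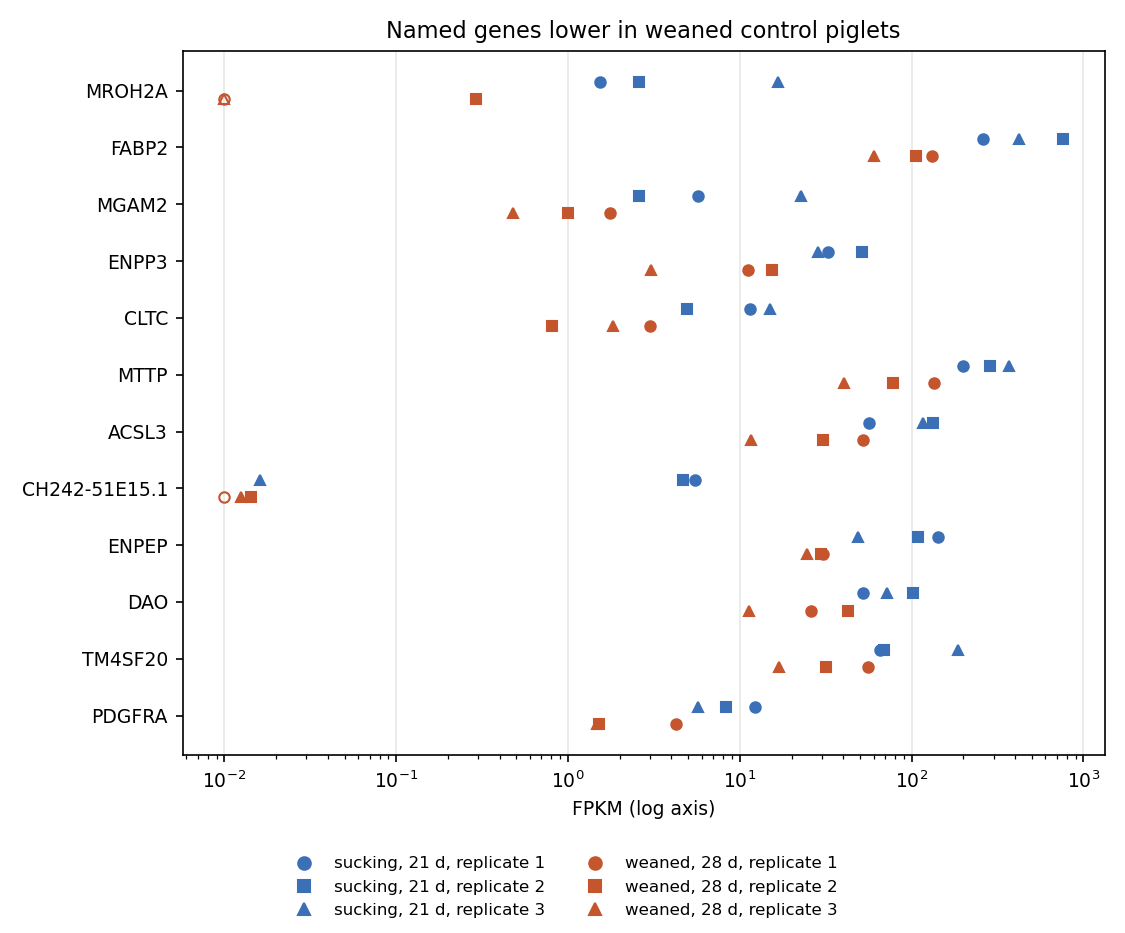
FPKM in each control library (log axis) of the 12 members with a symbol that fell most without overlap between groups; blue marks are sucking and orange marks weaned piglets, the marker shape gives the replicate, and open marks at 0.01 FPKM stand for lower values or a listed 0. FABP2, MTTP, DAO and ENPP3 are lowest in weaned replicate 3, and MROH2A, MGAM2 and TM4SF20 are highest in sucking replicate 3.

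Several genes of fatty acid oxidation were lower after weaning. Of 22 tested members of fatty acid oxidation 20 were lower, 9 of them at P under 0.05 (background 8.38%) and none higher at that level, with a median of -0.51 and 12 members whose groups did not overlap (background 25.3%). HADH, a dehydrogenase of short-chain intermediates, was at 181, 198 and 211 FPKM and then at 95.5, 145 and 132 FPKM (-0.67 ± 0.20, adjusted p = 0.172). HADHA was at 173, 154 and 149 FPKM and then at 119, 117 and 106 FPKM (-0.47 ± 0.15, adjusted p = 0.191), and HADHB, the other subunit of the trifunctional protein, differed by -0.60 ± 0.19 (adjusted p = 0.184). The carnitine steps followed, with SLC25A20 at -0.73 ± 0.27 (adjusted p = 0.228) and CPT1A at -0.55 ± 0.22 (adjusted p = 0.258), as did the electron acceptor ETFDH (-0.64 ± 0.15, adjusted p = 0.13) and the thiolase ACAA2 (-0.74 ± 0.22, adjusted p = 0.173). ACADS, the short-chain acyl-CoA dehydrogenase, was higher in all 3 weaned libraries, at 46.8, 48.2 and 59.4 FPKM against 41.1, 38.5 and 43.0 FPKM (0.32 ± 0.16, adjusted p = 0.344). The number lower at P under 0.05 ran from 7 to 9 when any 1 library was left out and from 8 to 10 under other scalings.

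The respiratory chain showed smaller differences. Of 37 tested members 30 were lower, 9 lower and 1 higher at P under 0.05 (background 8.38% and 9.35%), and the median was -0.27. ATP5A1, a subunit of ATP synthase, was at 684, 806 and 910 FPKM in the sucking and at 549, 514 and 558 FPKM in the weaned control piglets (-0.56 ± 0.18, adjusted p = 0.195). SDHC, a membrane anchor of complex II, was at 48.8, 80.1 and 81.8 FPKM and then at 43.9, 25.6 and 35.5 FPKM (-0.98 ± 0.28, adjusted p = 0.165). COX7A2, of cytochrome c oxidase, differed by -0.64 ± 0.21 (adjusted p = 0.194), and NDUFS7, of complex I, was the 1 member higher (0.62 ± 0.19, adjusted p = 0.179). None passed the 2-fold limit. The number lower at P under 0.05 dropped to 1 without sucking replicate 3 and to 2 without weaned replicate 2, and the median was then -0.18 and -0.16. Other scalings gave 3 to 12.

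Apical digestive enzymes and transporters were represented by single members. On the list of brush border hydrolases 2 of 14 tested members fell (background 1.82%), with a median of -0.50. Leaving out 1 library brought the median to between -0.87 (without sucking replicate 3) and -0.12 (without weaned replicate 3), and 2 to 4 members were then lower at P under 0.05; with the replicate number as a block 5 were. ENPEP, aminopeptidase A, was at 143, 109 and 48.7 FPKM in the sucking and at 30.4, 29.8 and 24.7 FPKM in the weaned control piglets (-1.66 ± 0.37, adjusted p = 0.128). TMPRSS15, the enteropeptidase that activates trypsinogen, was at 3.15, 5.83 and 4.40 FPKM and then at 2.12, 1.83 and 0.631 FPKM (-1.14 ± 0.31, adjusted p = 0.161), with the call lost when sucking replicate 2 (-0.96) or weaned replicate 3 (-0.85) was omitted. MGAM2, named as a relative of maltase-glucoamylase, was at 5.68, 2.59 and 22.7 FPKM and then at 1.75, 1.00 and 0.476 FPKM (-2.04 ± 0.65, adjusted p = 0.189). Sucking replicate 3 was far above the other libraries for MGAM2, and without it the log2 fold change was -1.28, while without weaned replicate 3 it was -1.82 and no longer called. ENPP3, an ectonucleotidase, fell from 32.4, 51.6 and 28.6 FPKM to 11.1, 15.3 and 3.06 FPKM (-2.0 ± 0.51, adjusted p = 0.143). DAO, given without a description in the table and otherwise known as D-amino acid oxidase, fell from 52.3, 102 and 71.7 FPKM to 25.9, 42.8 and 11.3 FPKM (-1.60 ± 0.47, adjusted p = 0.17).

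Among transporters, SLC39A4, the zinc importer of the apical membrane, was at 12.8, 17.9 and 26.9 FPKM and then at 3.77, 4.26 and 11.1 FPKM (-1.53 ± 0.41, adjusted p = 0.153) and kept its call without any 1 library. It fell in the same libraries in which MT2A rose, and weaned replicate 3 had both the least MT2A and the most SLC39A4 of its group. TFRC, the transferrin receptor, was at 7.29, 3.98 and 5.10 FPKM and then at 1.35, 0.749 and 3.58 FPKM (-1.25 ± 0.38, adjusted p = 0.177), and was at -0.95 without weaned replicate 2. SLC4A4, the sodium bicarbonate cotransporter, was at 11.4, 12.0 and 6.98 FPKM and then at 6.33, 1.35 and 5.19 FPKM (-1.20 ± 0.44, adjusted p = 0.23), and was not called without sucking replicate 1 (-1.1) or 2 (-1.07) or weaned replicate 2 (-0.69). The basolateral glucose transporter SLC2A2 sat at the 2-fold limit, with 11.6, 10.1 and 15.2 FPKM against 8.02, 5.90 and 3.55 FPKM. LRAT, which esterifies retinol for chylomicrons, was at 1.48, 6.19 and 5.38 FPKM and then at 1.99, 1.35 and 0.768 FPKM, with overlap (-1.07 ± 0.43, adjusted p = 0.261), and lost its call without sucking replicate 2 or 3 or weaned replicate 2 or 3 (-0.78 to -1.08). LRAT also lost its call without the filter on low values, under quantile normalization, with the replicate block and in the Ballgown-type model. GIP, the incretin hormone of proximal enteroendocrine cells, matched to ENSSSCG00000026330, was at 88.1, 113 and 95.0 FPKM and then at 28.9, 63.2 and 28.0 FPKM (-1.38 ± 0.32, adjusted p = 0.13). GIP is also on the list of proximal markers, all 4 tested members of which were lower, and it alone passed the standard. Without sucking replicate 3 GIP was at -1.40, and the part of place along the gut in its fall was not tested.

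The remaining named falls were of mixed kind. CLTC, the clathrin heavy chain, went from 11.5, 4.95 and 14.9 FPKM to 2.98, 0.810 and 1.83 FPKM (-1.95 ± 0.43, adjusted p = 0.125), without overlap and without dependence on 1 library. MROH2A was at 1.53, 2.59 and 16.7 FPKM in the sucking libraries, and in the weaned ones it was listed at 0 in replicates 1 and 3 and at 0.292 FPKM in replicate 2 (-2.32 ± 0.67, adjusted p = 0.17); without sucking replicate 3 the value was -1.47. TM4SF20, a membrane protein with 4 spanning segments, was at 65.8, 69.0 and 186 FPKM and then at 55.6, 31.7 and 16.8 FPKM (-1.58 ± 0.53, adjusted p = 0.202), and it was not called without sucking replicate 3 (-1.09) or weaned replicate 3 (-1.15). A gene that carries only a clone name, the sum of 2 loci, was at 5.51, 4.68 and 0.0161 FPKM and then listed at 0, 0.0143 and 0.0125 FPKM (-1.73 ± 0.66, adjusted p = 0.246). Sucking replicate 3 was as low as the weaned libraries for this gene, and of the 6 omissions of 1 library only that of sucking replicate 3 kept the call, which was also lost with all 12 libraries in the fit. FMO5, a flavin monooxygenase, was at 10.5, 14.0 and 10.9 FPKM and then at 2.90, 7.24 and 6.94 FPKM, and was not called when weaned replicate 1 (-0.65) or sucking replicate 2 (-0.88) was omitted, under median-of-ratios rescaling or in the Ballgown-type model.

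PDGFRA and FBN1 were the members on the connective tissue list that fell. PDGFRA, a receptor of mesenchymal cells under the epithelium, fell from 12.3, 8.36 and 5.69 FPKM to 4.27, 1.52 and 1.47 FPKM (-1.55 ± 0.37, adjusted p = 0.135). FBN1, the microfibril protein fibrillin, fell from 6.85, 4.20 and 2.31 FPKM to 1.73, 1.33 and 0.602 FPKM (-1.24 ± 0.36, adjusted p = 0.169), and was at -0.94 without sucking replicate 1. Of 18 tested connective tissue members 3 were lower and 1 higher at P under 0.05 (background 9.35% higher and 8.38% lower), with a median of -0.31. LOX, which cross-links collagen, was among the lower ones (-0.64 ± 0.25, adjusted p = 0.254), and TIMP1, a protease inhibitor, was the 1 higher (0.63 ± 0.19, adjusted p = 0.172). Without sucking replicate 3 the number lower was 11 and the list median -0.78, and over all 6 omissions it ran from -0.78 to 0.01.

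Other lists held few members past either limit. Among 24 cell cycle members 3 were higher and none lower at P under 0.05, namely MKI67, CDC20 and MCM2, with a list median of 0.23. The background is 9.35% higher, and leaving out 1 library gave 1 to 3 higher members and a median of 0.07 to 0.34, with 1 higher without weaned replicate 2 and the lowest median without weaned replicate 3. MKI67, the marker of cycling cells, was at 42.2, 39.1 and 40.6 FPKM in the sucking and at 49.7, 68.2 and 59.5 FPKM in the weaned control piglets (0.52 ± 0.17, adjusted p = 0.192). Among 12 tight junction members 4 were lower at P under 0.05 and none higher (background 8.38% and 9.35%), with OCLN, the strand protein occludin, at 22.3, 21.5 and 19.3 FPKM and then at 14.6, 18.0 and 14.5 FPKM (-0.40 ± 0.16, adjusted p = 0.259), but leaving out 1 library brought this number to between 0 and 3, and with weaned replicate 2 omitted 3 were higher and 2 lower. Outside that list, and named after its values were seen, the claudin gene CLDN9, matched to ENSSSCG00000021536, went the other way. It rose from 46.6, 42.5 and 55.3 FPKM to 86.7, 129 and 143 FPKM (1.27 ± 0.23, adjusted p = 0.117), without overlap. The antigen presentation members SLA-1 (0.56 ± 0.19, adjusted p = 0.207), SLA-8 (0.63 ± 0.22, adjusted p = 0.215) and SLA-DRB1 (0.65 ± 0.27, adjusted p = 0.27), were higher at P under 0.05, of 20 tested, and none was lower (background 9.35% and 8.38%). These swine leukocyte antigen genes are near-identical to others of the locus, so reads may be shared, and no member was higher at that level without weaned replicate 2. Of 18 intestinal transcription factors 4 were higher at P under 0.05 (background 9.35%), among them ELF3 (0.54 ± 0.20, adjusted p = 0.225) and GATA6 (0.65 ± 0.27, adjusted p = 0.268), and 1 to 3 when any 1 library was left out. Of 12 tested members on the list of arginine, proline and glutamine enzymes 2 were lower and 1 higher at P under 0.05, near the background, with a median of -0.11. SRM, which makes spermidine, was higher (0.79 ± 0.20, adjusted p = 0.149). ALDH18A1, of proline synthesis, was at 138, 120 and 108 FPKM and then at 59.9, 80.4 and 57.7 FPKM (-0.89 ± 0.19, adjusted p = 0.119), and OAT, ornithine aminotransferase, was at 1050, 1100 and 829 FPKM and then at 587, 726 and 357 FPKM (-0.89 ± 0.29, adjusted p = 0.196). Among 14 members of epithelial antimicrobial defence, RETNLB (-0.69 ± 0.28, adjusted p = 0.261) and REG4 (-0.63 ± 0.26, adjusted p = 0.27) were lower at P under 0.05 (background 8.38%) and none was higher, although 10 of the 14 lay above 0 and the median was 0.21. Over the 6 omissions 0 to 3 were lower and 0 to 2 higher, the median ran from -0.18 to 0.34, and with the replicate number as a block 0 were lower.

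**Figure D4:**
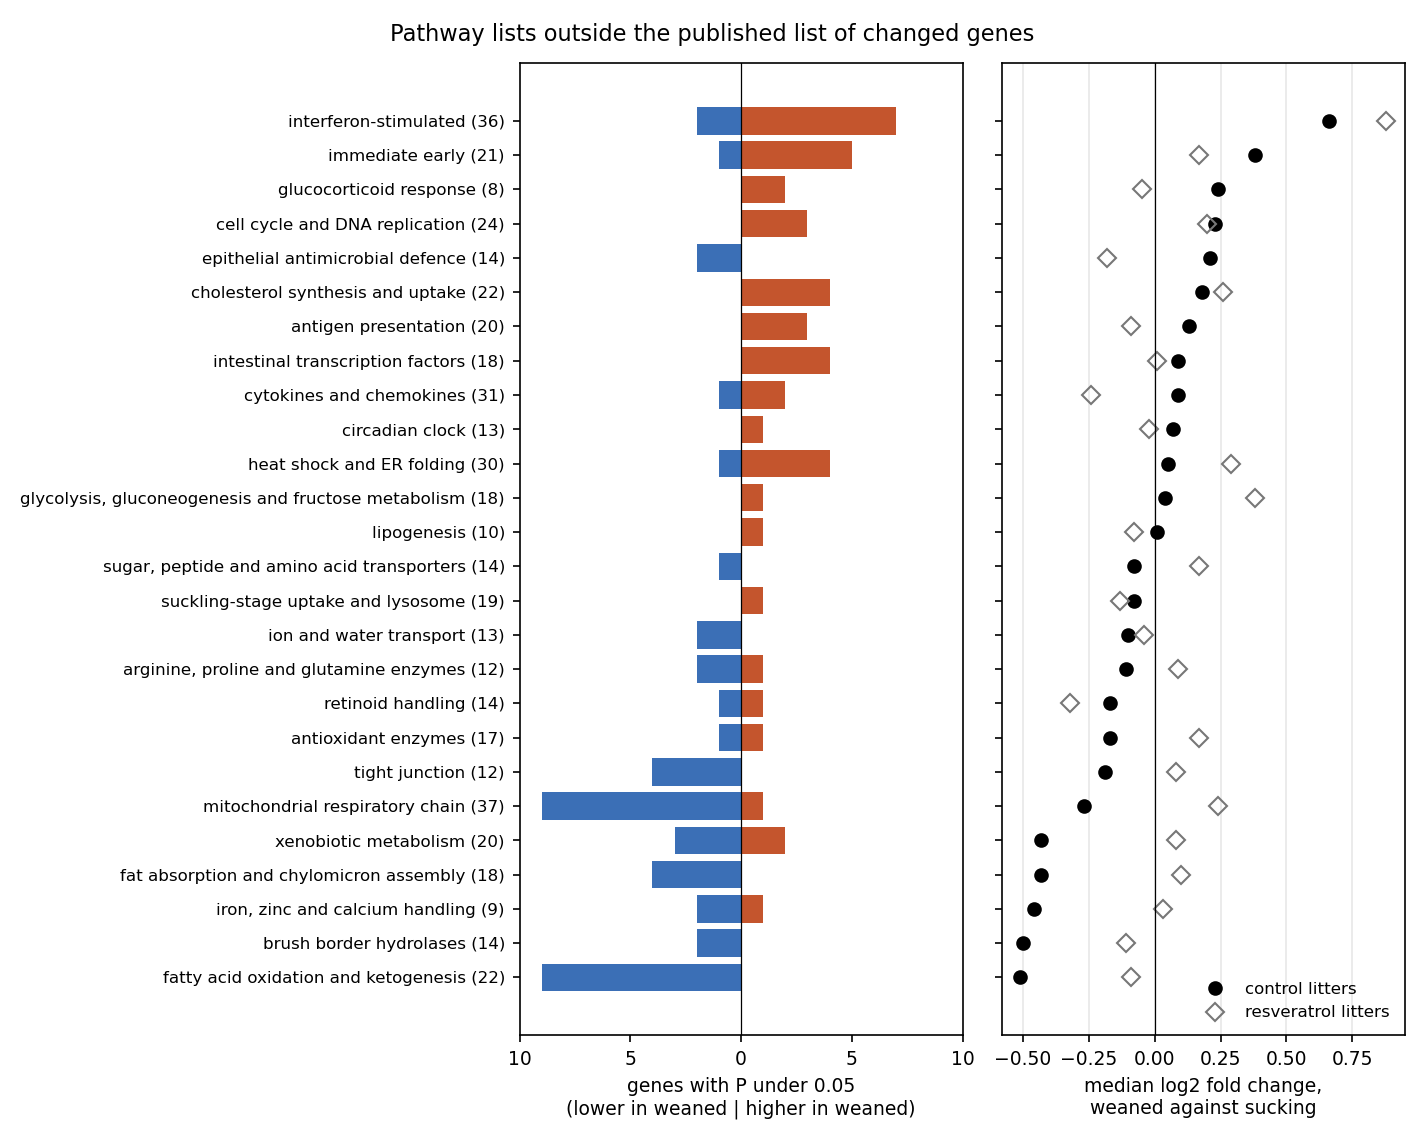
For each pathway list (number of tested members in parentheses), the left panel gives the number of members higher (orange) or lower (blue) in weaned control piglets at an unadjusted P under 0.05, and the right panel the median log2 fold change in control litters (filled circles) and in resveratrol litters (open diamonds). Fatty acid oxidation and the respiratory chain each have 9 members lower, and the interferon list has medians of 0.66 in control and 0.88 in resveratrol litters.

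The resveratrol litters gave the same comparison of age and weaning in other piglets, under another maternal diet. Of the 251 called members, 163 had the same sign there (64.9%, against 54.6% of all names tested), and 31 had the same sign with P under 0.05 (12.4%, against 7.26%). Of the members that rose 22 of 112 (19.6%) had the same sign with P under 0.05, and of those that fell 9 of 139 (6.47%); the difference between these shares was not tested. Another 4 members had the opposite sign with P under 0.05. In these litters 4.32% of all names tested passed the study's standard. Of the 12 named rises 8 had the same sign and 5 a P under 0.05, whereas of the 12 named falls 5 had the same sign and none a P under 0.05.

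MT2A was at 9.13, 24.1 and 58.6 FPKM in the sucking and at 1150, 180 and 239 FPKM in the weaned resveratrol piglets (3.90 ± 0.85, adjusted p = 0.322). FGFBP1 was at 2.13, 0.0448 and 0.524 FPKM and then at 6.66, 7.11 and 14.1 FPKM (2.52 ± 0.46, adjusted p = 0.322). OASL was at 75.2, 2.59 and 44.2 FPKM and then at 293, 622 and 166 FPKM (3.76 ± 1.12, adjusted p = 0.322). The groups did not overlap for any of these, as in the control litters. IGLV-2 (1.71 ± 0.38, adjusted p = 0.322), DHX58 (1.56 ± 0.33, adjusted p = 0.322) and FOS (1.5 ± 0.32, adjusted p = 0.322) were higher as well, and SLC39A4 was lower (-1.16 ± 0.25, adjusted p = 0.322), at 16.2, 17.0 and 28.0 FPKM and then at 7.40, 8.81 and 8.77 FPKM. IGLC (0.57 ± 0.58, adjusted p = 0.703) and CD79B (-0.28 ± 0.30, adjusted p = 0.709) did not pass in these litters. The B cell and plasma cell list had 0 members higher and 0 lower at P under 0.05 there, with a median of -0.14. On the interferon list 20 of 36 members were higher and 2 lower at P under 0.05 in these litters (background 13.4% in either direction), with a median of 0.88.

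FABP2, MTTP and CXCL13 did not pass the test in the resveratrol litters. Those libraries also differed in markers of place along the gut. Their distal sums were 676, 259 and 8650 FPKM in the sucking and 26100, 411 and 343 FPKM in the weaned piglets, and their proximal sums 244, 1590 and 348 FPKM and then 386, 453 and 1150 FPKM. The part of these sums in the values of the resveratrol litters and in the interaction was not tested. FABP2 was at 454, 96.2 and 299 FPKM and then at 303, 121 and 146 FPKM (-0.43 ± 0.62, adjusted p = 0.791), and MTTP at 157, 76.4 and 107 FPKM and then at 108, 101 and 166 FPKM (0.16 ± 0.33, adjusted p = 0.86). The groups of both genes overlapped. The median of the fatty acid oxidation list was -0.09 and that of the respiratory chain 0.24. CXCL13 was at 5.01, 5.71 and 0.493 FPKM and then at 1.25, 0.071 and 0.385 FPKM (-1.39 ± 0.60, adjusted p = 0.382), and CLU was lower (-0.83 ± 0.34, adjusted p = 0.372). MYL9, at 180, 382 and 60.9 FPKM and then 52.6, 40.5 and 7.48 FPKM (-2.61 ± 0.86, adjusted p = 0.338), went with a summed smooth muscle level of 901 to 5770 FPKM in the sucking and 265 to 863 FPKM in the weaned resveratrol piglets.

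The difference between the litters was tested as an interaction in limma over the 12 libraries. At an unadjusted P under 0.05 it was found for 83 of the 251 called members, against 13.6% of all names tested, and for 20 of the 56 named genes, among them TMEM177 (adjusted p = 0.258), CXCL13 (adjusted p = 0.258), MYL9 (adjusted p = 0.258), MTTP (adjusted p = 0.258) and CLTC (adjusted p = 0.258). The called members were chosen for a large change in 1 of the sets compared, so this share is a description. No gene name had an interaction adjusted p under 0.05 in limma, and the lowest among the named genes was 0.258, so that no named gene was shown to differ between the litters after adjustment.

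**Figure D5:**
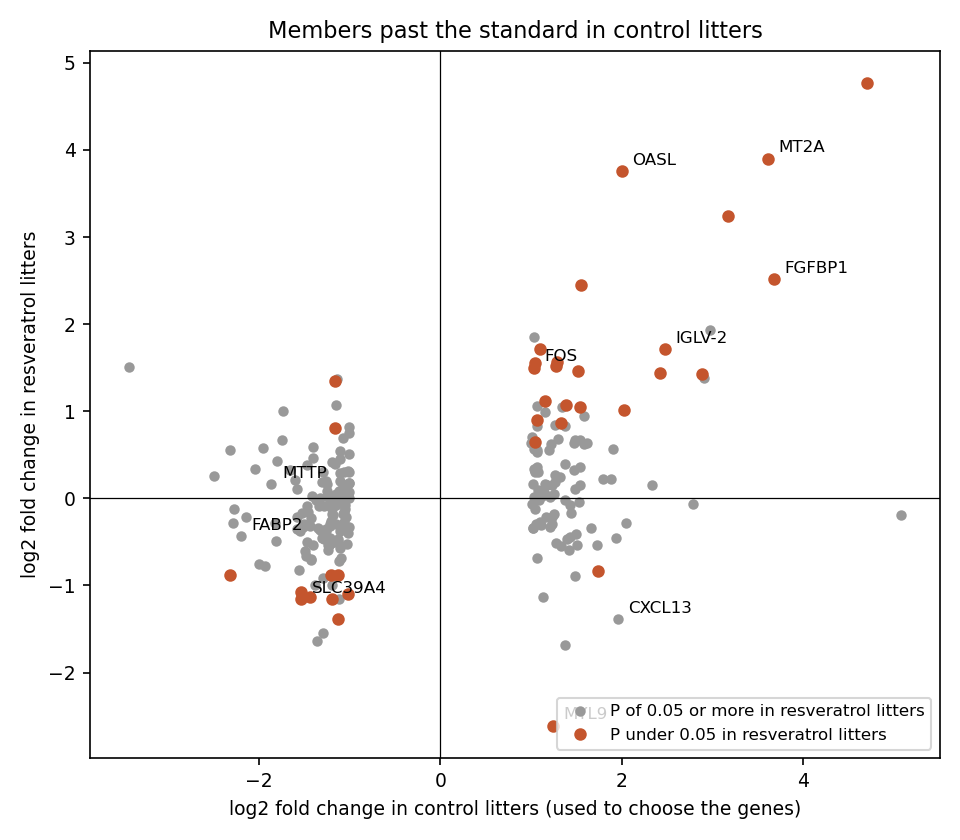
Each point is 1 of the 251 members called in control litters, with the log2 fold change in control litters (horizontal axis, used to choose the genes) against that in resveratrol litters (vertical axis); orange points have P under 0.05 in the resveratrol litters. MT2A (3.61 and 3.90) and OASL (2.00 and 3.76) lie high in both, and MYL9 (1.24 and -2.61) and CXCL13 (1.96 and -1.39) lie on opposite sides.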

How the data were processed

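Total RNA from the jejunum of 12 piglets was sequenced, 3 per group, and the study describes the control libraries as biological replicates. The authors deposited FPKM values per assembled locus, and counts per gene were not used here, so the depth behind a value is unknown. The study's methods name TopHat, StringTie and Ballgown, whereas the submitters' processing notes name Bowtie 0.12.2, HISAT2 2.0 and StringTie 1.3.0 and the builds Sscrofa10.2 and mm8; which aligner made the table could not be settled. No coordinates or sequences are given, because no genome of that build was used.

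Loci were summed by gene name; 17650 of 41264 loci (42.8%) had no name and were left out. The study's list of differentially expressed genes was used for its names only, and 5 of its 456 names were not matched. Of the names, 6232 are Ensembl identifiers, 2139 with a symbol in the reference table. Names averaging 0.5 FPKM or more in the 6 control libraries were taken as log2(FPKM + 1) and fitted with limma 3.58.1 in R 4.3.3 (lmFit, eBayes with trend) on the control libraries alone. P-values are two-sided, and those adjusted by Benjamini-Hochberg over all names tested are printed for single genes, while calls use the unadjusted P as the study did. The interaction was fitted on all 12 libraries. The scripts were tested on simulated data.

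The members and the 41 lists (1006 genes, 779 matched) were chosen with earlier results of these data known. Named genes were the 12 largest rises and 12 largest falls among members with a symbol, a mean of at least 1 FPKM, past the standard and without overlap; up to 4 per list past the standard; the 4 members of at least 100 FPKM with the smallest P in each direction; and those at the 2-fold limit. Other genes named as examples were chosen after their values were seen. Alternatives were another pseudocount, other filters, scalings and models, a replicate block, the highest locus in place of the sum, and the omission of each library. Some genes that meet the naming rule are not reported here.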

Additional observations from a re-analysis of the deposited data

How the results depend on the processing

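The number of members past the standard (251; 112 higher and 139 lower) moved by more than 1.5 times under 4 alternatives. A pseudocount of 0.1 gave 592 (261 higher and 331 lower), a minimum mean of 5 FPKM gave 134 (60 and 74), a linear model of the Ballgown type with a library-size covariate gave 124 (52 and 72), and an adjusted p under 0.05 in limma gave 0 (0 and 0). The stricter filter tests fewer names, and the adjusted p gave 0 because its lowest value was 0.117. At a pseudocount of 0.1, 1895 members had an unadjusted P under 0.05, against 1906 in the main fit. The number at that P thus hardly moved, while the number also past the 2-fold limit grew. For the Ballgown-type model the cause was not tested. Of the 251 calls, 241 were shared at the pseudocount of 0.1 and 108 under the Ballgown-type model. Leaving out 1 control library gave 261 to 332 calls, 116 to 152 higher and 132 to 187 lower, of which 162 to 183 were among the 251. Leaving out 1 resveratrol library gave 148 to 172 members with the same sign and 21 to 42 with P under 0.05 besides. With the replicate number as a block there were 275 calls (122 higher and 153 lower). Same-numbered control libraries correlated at -0.06, 0.09 and -0.01 in their deviations, and the labels do not tie a number to a litter. The numbers were therefore not taken to pair the piglets, and any shared litters are not in the model. Over the alternatives other than the adjusted p, under which no named gene was called, the named genes kept their direction and side of the threshold in 759 results, lost the call in 119, gained it in 9 and reversed in 0. With 3 piglets per group and no counts, weakly expressed genes are the least certain.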
